A study of Mus musculus with 6 samples.

Results

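The 9 genes described here encode transcription factors of the AP-1 group and their close partners: Fos, Fosb and Fosl2, Jun, Junb and Jund, Atf3, and the small MAF proteins Maff and Mafg. They were chosen by symbol from the 21606 genes of the count table, and all 9 were present. The choice was made with the male and female levels of these genes already known, so their levels and fold changes between the sexes are given as a description. Where a member is said to pass the threshold of the fit over all genes, this describes that fit and, since the same contrast chose the members, is no independent evidence of a difference.

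RNA was measured in ALDHbr cells, that is bone marrow cells in which the activity of aldehyde dehydrogenases is high, from male and female mice of the inbred C57BL/6 strain. There were 3 libraries from male and 3 from female mice, all of wild-type genotype and with no treatment named in the labels. The labels give neither the age of the mice nor whether replicates came from separate animals. Any p-value therefore measures only the spread between these libraries, which may be technical. The libraries were made by BRB-seq, a bulk method that barcodes each sample at reverse transcription and reads the 3' ends of polyadenylated transcripts.

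AP-1 is a dimer of leucine-zipper proteins, usually a FOS protein with a JUN protein, that binds short palindromic DNA sites in promoters and enhancers. Most FOS and JUN genes belong to the immediate-early genes, whose transcription starts within minutes of growth factor, cytokine or stress signals carried by MAP kinases, and whose mRNAs are short-lived. JUN proteins can pair with themselves, whereas FOS proteins need a JUN partner. ATF3, a stress-induced protein, pairs with JUN or with itself, and small MAF proteins have no activation domain of their own and pair with each other, with FOS proteins or with NRF2 and BACH proteins. In blood formation these factors act in myeloid differentiation and in the response of progenitors to cytokines.

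Totals were between 679724 and 880074 counts in the male libraries and between 1199551 and 1475224 in the female ones, so depth and sex cannot be told apart in the counts as deposited. Markers of immature myeloid cells (Mpo, Elane, Prtn3, Ctsg, Ms4a3 and Cebpe) summed to between 13144 and 14169 normalised CPM in male libraries and between 14682 and 15402 in female ones, while 8 markers of maturing neutrophils summed to at most 33.3 CPM in males and 37.9 in females. Normalised CPM are counts scaled to a common library size after TMM normalisation. Male replicate 2 had the fewest counts, the largest share of mitochondrial ribosomal RNA (5.27%, against 2.57% and 3.95% in male replicates 1 and 3 and 1.71% to 3.62% in females) and the largest share of ribosomal protein mRNA (16.3%, against 11.5% to 14.6% in the other 5 libraries). Several of the results below depend on it.

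The promoters of the 3 members that passed the threshold in the sex comparison below, and of Jun, which did not, are printed here because these genes are classically switched on through sites near their start. Each run is the 250 bases before the start annotated by RefSeq (GRCm38.p6), 5′ to 3′ on the strand of the gene, with TGACG, the core of the CRE elements that CREB and ATF proteins and some AP-1 dimers bind, in capitals on either strand. Fos lies at chr12:85473640-85473889 on the plus strand, Junb at chr8:84978749-84978998, Atf3 at chr1:191183334-191183583 and Jun at chr4:95052223-95052472, the last 3 on the minus strand.
Fos: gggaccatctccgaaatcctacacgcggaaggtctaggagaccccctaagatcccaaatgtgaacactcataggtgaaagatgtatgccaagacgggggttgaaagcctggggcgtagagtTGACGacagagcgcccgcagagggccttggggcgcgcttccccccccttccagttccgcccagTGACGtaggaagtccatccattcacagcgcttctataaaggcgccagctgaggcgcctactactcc
Junb: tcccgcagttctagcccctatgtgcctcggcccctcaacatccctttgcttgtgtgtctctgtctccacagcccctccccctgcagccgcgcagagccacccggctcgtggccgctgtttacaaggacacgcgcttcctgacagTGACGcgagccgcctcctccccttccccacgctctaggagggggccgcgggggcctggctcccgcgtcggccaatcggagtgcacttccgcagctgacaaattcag
Atf3: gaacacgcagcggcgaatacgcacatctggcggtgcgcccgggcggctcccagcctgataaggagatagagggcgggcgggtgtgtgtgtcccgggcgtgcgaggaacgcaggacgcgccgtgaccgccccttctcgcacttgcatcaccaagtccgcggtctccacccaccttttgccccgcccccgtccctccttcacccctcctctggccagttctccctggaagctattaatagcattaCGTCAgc
Jun: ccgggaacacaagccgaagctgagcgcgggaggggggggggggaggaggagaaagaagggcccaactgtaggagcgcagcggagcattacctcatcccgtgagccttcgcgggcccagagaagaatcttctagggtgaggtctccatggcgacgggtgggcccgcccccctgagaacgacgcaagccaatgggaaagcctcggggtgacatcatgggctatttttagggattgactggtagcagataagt

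Of the 9 members, 6 had TGACG in at least 1 promoter window: Fos at 129 and 66 bases before the start, Fosb at 60, Junb at 106, Atf3 at 7, Mafg at 22, and Maff, which has 3 annotated starts, in windows of 2 of them. The windows of Fosl2, Jun and Jund held none. For Jund the window (chr8:70697489-70697738) ended upstream of the GENCODE gene start at 70698949, so the bases next to that start were not searched. The Atf3 window lay inside the GENCODE gene, whose start on the minus strand is at 191218039. The Fosl2 window (chr5:32136222-32136471) likewise lay inside its gene, which starts at 32135801. For both genes the bases before the GENCODE start were not searched. Over all 32851 promoter windows of the same length, 17.8% held it, and 19.8% of 27025 genes held it in at least 1 window. The GC content was between 58.4% and 68.8% in 9 of the members' 11 windows, and 47.6% for Jund and 48.0% for a Maff window, against a median of 52.4% over all windows. Its part in these counts was not tested. The full CRE, TGACGTCA, was found only in a Maff window, 29 bases before that start, where it contains TGACG on both strands, and occurs in 1.55% of all windows. The AP-1 heptamer TGANTCA was in no member's window, against 6.75% of all, and neither was the CArG box of serum response factor (1.47% of all). TATAAA was found in Fos alone of the members, 33 bases before the start, against 12.4% of all windows. Only exact runs were counted, so TGACATCA in the Jun window, which resembles TGACGTCA, was not. The absence of a match is therefore no evidence that a gene lacks such sites. A match is a run of letters and not a measured site, and sites farther than 250 bases from the start were not searched.

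AU-rich elements in the 3' untranslated region, bound by decay factors such as tristetraprolin (Zfp36), are another sequence feature. The choice of genes did not use them directly but took a family whose mRNAs are mostly short-lived, so their share is a description. The nonamer TTATTTATT was present in the 3' untranslated region of 3 of 9 members, against 7.21% of 8099 tested genes with such a region. Length was not matched, and these regions had 815 bases in Fos, 4653 in Fosl2 and 1221 in Maff, against a median of 1029. These windows show the first nonamer of each gene in capitals, with 10 bases on either side, in Fos (chr12:85477103-85477131), Fosl2 (chr5:32156871-32156899) and Maff (chr15:79358778-79358806), all GRCm38 and on the plus strand.
Fos: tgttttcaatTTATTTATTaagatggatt
Fosl2: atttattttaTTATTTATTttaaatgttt
Maff: ttccacactcTTATTTATTgcacgaatct

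The core pentamer ATTTA, which every nonamer contains, occurred in all 9 members and in 68.3% of the tested genes, and its density was 4.91 per kilobase in Fos, 4.12 in Junb, 3.28 in Maff, 3.24 in Jun and 2.53 in Atf3, against a median of 1.35 over the tested genes. Jund (1.88) and Fosl2 (1.72) lay closer to that median, and Mafg (0.96) and Fosb (0.47) lay below it. Jun, Junb and Jund have a single exon in the annotated principal transcript, Maff and Mafg have 3, and Fos, Fosb, Fosl2 and Atf3 have 4. All members lie on autosomes, with Junb and Jund both on chromosome 8.

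Of the 9 members, 8 had enough counts to be tested, and 3 of them (Atf3, Junb and Fos) lay past the threshold with higher levels in males and none with lower levels. Over all 8460 tested genes, 36 (0.426%) passed with higher and 13 (0.154%) with lower levels in males, 0.579% in either direction, at an adjusted p of 0.05 in the edgeR quasi-likelihood fit. Scaled by library size alone, 29 were higher and 23 lower. The members were chosen with this contrast known, so nothing is read from these shares. Fold changes of 7 of the 8 lay above 0, with a median of 0.49 on the log2 scale, against -0.0030 over all tested genes. In normalised CPM, male libraries all lay above female ones for Fos, Junb and Atf3, and all below for Fosl2, where such a split held for 7.57% and 8.03% of all tested genes. A higher level in bulk RNA can come from more cells of a type or from more RNA per cell, and these cannot be told apart here.

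**Figure D1:**
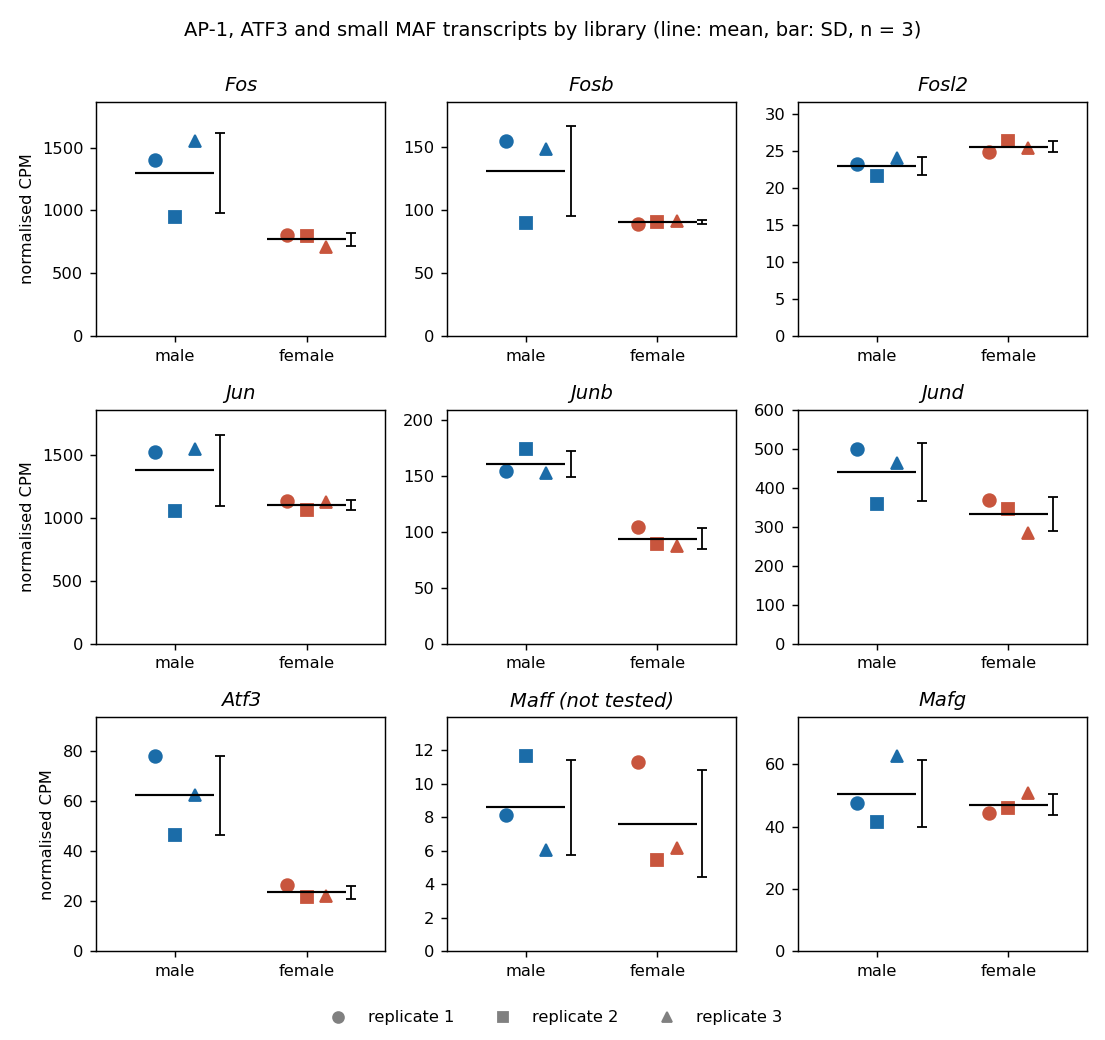
Normalised CPM (vertical axes, from 0) of each of the 9 members in the 3 male and 3 female libraries, with symbols for the replicate number, a line at the mean and a bar for the SD. In Fos, Fosb, Jun and Jund male replicate 2 sits at 945, 89.8, 1054 and 359 CPM, below the other male libraries, whereas in Junb it is the highest library at 175 CPM.

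Fos (ENSMUSG00000021250, chromosome 12, 85473890 to 85477273 on the plus strand, GRCm38) encodes the founding FOS protein. Its level was 1398, 945 and 1553 CPM in male replicates 1 to 3, against 805, 796 and 710 CPM in female replicates 1 to 3. After TMM scaling all male libraries were above all female ones, but male replicate 2 stood closer to the females than to the other males. The means were 1298 ± 316 CPM in males and 770.3 ± 52.8 in females (SD, n = 3 each), a log2 fold change of 0.76 ± 0.15 (SE). Without male replicate 2 the log2 fold change of Fos was 0.94. Fos did not pass without male replicate 3 (0.61), female replicate 2 (0.78) or female replicate 3 (0.70).

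Fosb encodes a second FOS protein with an activation domain. It had 155, 89.8 and 148 CPM in male libraries, against 88.6, 90.8 and 91.6 CPM in female ones. The female libraries had a coefficient of variation of 1.72%, and male replicate 2 lay among them, so the sexes overlapped. The log2 fold change of Fosb was 0.56 ± 0.16 (SE) and did not pass with all libraries; without male replicate 2 it was 0.75 and passed.

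Fosl2, also called FRA-2, lacks a strong activation domain. Its levels were 23.3, 21.6 and 24.1 CPM in males, against 25.0, 26.4 and 25.4 CPM in females. The male values were all lower, by a small margin, with a log2 fold change of -0.15 ± 0.24 (SE) that did not pass. The library counts of Fosl2 were 20, 13 and 20 in males and 31, 39 and 33 in females, and the ratio of summed counts per scaled library size was 0.903, with a 95% exact counting interval of 0.636 to 1.27. The corresponding ratio of Fos was 1.73, with an interval of 1.65 to 1.82. Such intervals cover counting error only.

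Jun encodes the JUN protein, the main partner of FOS. It had 1527, 1054 and 1552 CPM in male libraries and 1131, 1060.05 and 1123 CPM in female ones. Male replicate 2 was the lowest of all 6 libraries, and the other male libraries were the highest. The means of 1378 ± 280.3 CPM in males and 1105 ± 39.0 in females (SD, n = 3 each) gave a log2 fold change of 0.32 ± 0.14 (SE), which did not pass. Without male replicate 2, the log2 fold change of Jun was 0.48 and passed.

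Junb, on chromosome 8 (84974484 to 84978718, minus strand, GRCm38), encodes a JUN protein that can restrain JUN and limits the expansion of myeloid progenitors in mice. It had 155, 175 and 153 CPM in male libraries, against 105, 89.4 and 87.7 CPM in female ones. The groups did not overlap, and here male replicate 2 was the highest library. The means were 161 ± 12.0 CPM in males and 93.9 ± 9.34 in females (SD, n = 3 each), a log2 fold change of 0.77 ± 0.13 (SE). Without single libraries the log2 fold change lay between 0.72 and 0.85. Prdx2, a peroxiredoxin gene on the opposite strand, shares 173 exonic bases with Junb, and the sources used here do not state whether reads were assigned by strand. Prdx2 had 195, 276 and 192 CPM in males and 188, 191 and 182 in females, so it too was highest in male replicate 2. Its log2 fold change of 0.22 ± 0.14 (SE) did not pass, and its part in the counts of Junb was not tested.

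Jund encodes the JUN protein that is least dependent on stimulation. Its levels were 502, 359 and 464 CPM in males, against 369, 347 and 286 CPM in females. The sexes overlapped through male replicate 2, and the log2 fold change of 0.41 ± 0.14 (SE) did not pass, with or without that library (0.53 without it).

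Atf3 (ENSMUSG00000026628, chromosome 1, 191170296 to 191218039, minus strand, GRCm38) had the largest fold change of the members. It had 78.0, 46.6 and 62.7 CPM in male replicates 1 to 3, against 26.6, 21.7 and 22.3 CPM in female ones. Every male library held more than every female one, although male replicate 2 was again the lowest male library. The log2 fold change was 1.44 ± 0.21 (SE), or 2.71-fold, and without single libraries it was between 1.25 and 1.59. In raw counts Atf3 had 67, 28 and 52 in males and 33, 32 and 29 in females, although the male libraries were smaller. The summed counts gave a scaled ratio of 2.74, with a 95% exact counting interval of 2.10 to 3.59.

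Mafg and Maff encode small MAF proteins. Mafg had 47.8, 41.6 and 62.7 CPM in males, against 44.3, 46.1 and 50.8 CPM in females. The groups overlapped, and the log2 fold change of 0.13 ± 0.19 (SE) turned to -0.060 without male replicate 3 and to -0.026 when every library was thinned to the size of the smallest. Mafg shares 124 exonic bases with Sirt7 on the same strand, a deacetylase gene with 61.6 ± 12.9 CPM in males and 61.6 ± 7.33 in females (SD, n = 3 each). Maff was too low to be tested, with 7, 7 and 5 counts in males and 14, 8 and 8 in females; the scaled ratio of 1.11 had a 95% exact counting interval of 0.591 to 2.04, so a difference was not detectable at this depth.

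**Figure D2:**
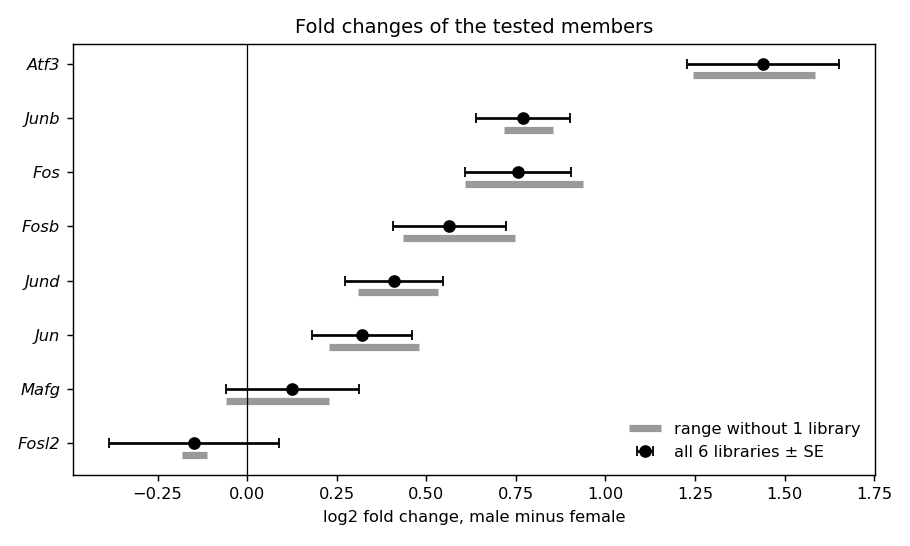
Log2 fold change, male minus female (horizontal axis), of the 8 tested members, with points and bars for the value and SE over all 6 libraries and grey bars for the range when 1 library is left out. Atf3 lies at 1.44, Junb and Fos at 0.77 and 0.76, and Mafg and Fosl2 at 0.13 and -0.15, near 0.

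The members did not order the libraries alike. Male replicate 2 was the lowest male library for 7 of 9 members and the highest of all libraries for Junb and Maff. By summed counts, its scaled level was 0.641 of that in the other male libraries for Fos (95% exact counting interval 0.584 to 0.702), 0.685 for Jun (0.627 to 0.747), 0.592 for Fosb (0.433 to 0.797) and 0.743 for Jund (0.637 to 0.865), so these 4 were lower in it by more than counting error. For Atf3 the ratio was 0.661, with an interval that reached 1.00. For Junb it was 1.13 (0.895 to 1.43). It was 0.913 for Fosl2 (0.448 to 1.74), 0.755 for Mafg (0.465 to 1.18) and 1.64 for Maff (0.546 to 4.51). The intervals of Junb, Fosl2, Mafg and Maff all held 1.

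Set against the female libraries, male replicate 2 had 1.87 times the level of Junb (95% exact counting interval 1.49 to 2.32), 1.99 times that of Atf3 (1.26 to 3.06) and 1.23 times that of Fos (1.12 to 1.34). For Fosb, Jun and Jund the ratios were 0.994, 0.956 and 1.08, and each interval held 1. After TMM scaling, Fos, Junb and Atf3 were thus above every female library in all 3 male libraries, and Fosb, Jun and Jund in male replicates 1 and 3 alone. For Fos, this place of male replicate 2 depends on the scaling, as its TMM factor was 0.900, against 1.02 to 1.06 in females. Unscaled, Fos held 568 of 679724 counts in male replicate 2, nearly the same share as 1000 of 1199551 in female replicate 1. That male replicate 2 differs was noticed after its values were seen, it is a single library, and its high shares of mitochondrial ribosomal RNA and ribosomal protein mRNA move with this pattern; their part was not tested.

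**Figure D3:**
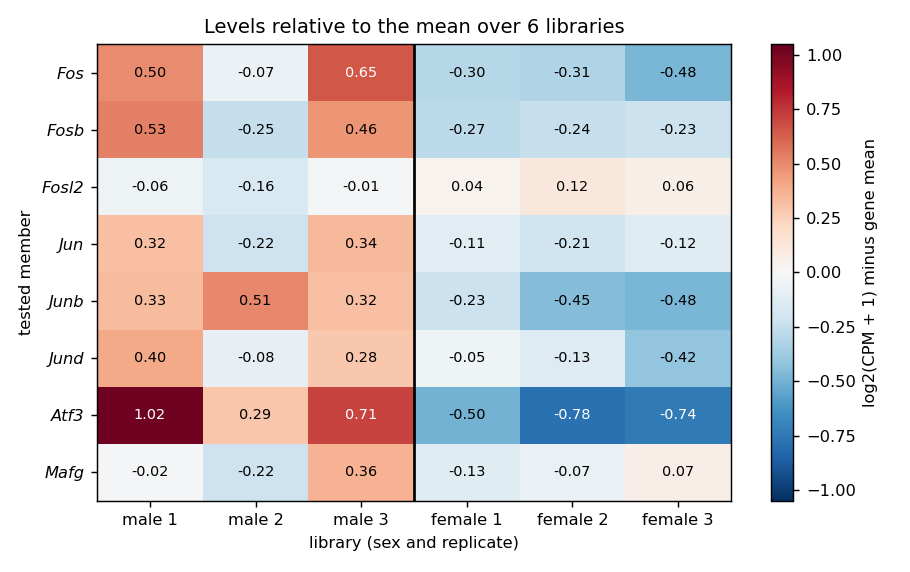
Heat map of log2(CPM + 1) of the 8 tested members minus each gene's mean over the 6 libraries (colour scale), male libraries left of the line and female ones right. Male replicate 2 is at -0.065, -0.25, -0.22 and -0.085 for Fos, Fosb, Jun and Jund, against 0.51 for Junb and 0.29 for Atf3.

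Shares of counts within a library do not depend on scaling between libraries. FOS genes made up 41.9%, 39.9% and 44.3% of the summed FOS and JUN counts in male replicates 1 to 3, against 36.4%, 37.9% and 35.6% in female replicates 1 to 3. The male shares were all higher, although the 95% exact binomial interval of male replicate 2 (37.5% to 42.4%) overlaps those of female replicates 1 (34.7% to 38.1%) and 2 (36.3% to 39.5%). Within the FOS genes, Fos itself held 88.7%, 89.4% and 90.01% of counts in males and 87.6%, 87.2% and 85.8% in females. Within the JUN genes, Junb held 7.09%, 11.0% and 7.06% in males and 6.52%, 5.97% and 5.86% in females. The 11.0% of male replicate 2 (9.08% to 13.2%) stood above every other library, and the remaining libraries overlap in their intervals. Shares compare counts of 3' ends, not of proteins, and take no account of how well each gene's end is captured.

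**Figure D4:**
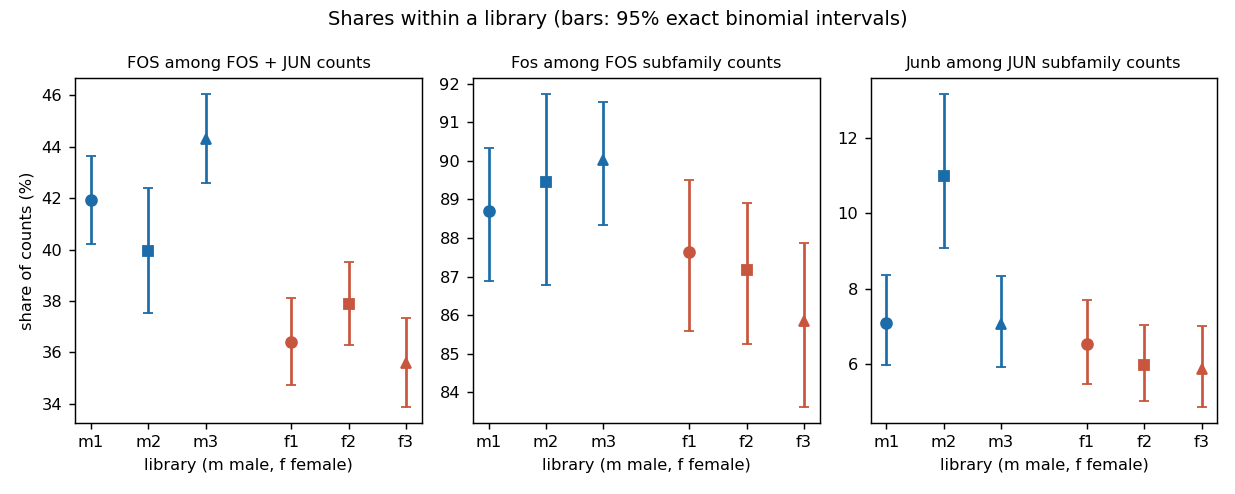
Share of counts in percent (vertical axes, not starting at 0) in each male (m) and female (f) library, with 95% exact binomial intervals, for FOS genes among FOS and JUN counts, Fos among FOS counts and Junb among JUN counts. FOS genes hold 39.9% to 44.3% in males and 35.6% to 37.9% in females.

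Summed over the subfamilies, the FOS genes had 1452 ± 351 CPM in males and 886 ± 51.7 in females (SD, n = 3 each), the JUN genes 1980.3 ± 339.7 and 1533 ± 62.6, and Atf3 with the small MAF genes 122 ± 19.0 and 78.2 ± 4.59. The 9 genes together held 0.399%, 0.243% and 0.380% of all counts in male replicates 1 to 3 and 0.270%, 0.249% and 0.243% in female replicates 1 to 3. By this unscaled share male replicate 2 lay below female replicates 1 and 2 and level with female replicate 3. After TMM scaling its sum of 2744 CPM lay above the 2606, 2483 and 2402 CPM of the female libraries, so its place relative to the females depends on the scaling. The log2 difference of the summed level, male minus female, was 0.49 with all libraries and 0.67 without male replicate 2.

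The genes whose profile over the 6 libraries was most like the mean of the tested members were taken by the mean absolute difference of centred log2(CPM + 1) values. Rhob, a small GTPase gene that growth factors and stress can induce, was the closest, at 0.052. It had 303, 219.5 and 300.04 CPM in males and 218, 203 and 183 in females, so male replicate 2 was its lowest male library too. Dusp3, a MAP kinase phosphatase gene, Wdr4, Impdh2-ps and Hgsnat followed at 0.073, 0.074, 0.075 and 0.081. None of the 5 passed the sex comparison (smallest adjusted p 0.156, edgeR), and among 8460 genes over 6 libraries some profiles lie close without any relation. Of the members, Jund, Jun and Fosb lay nearest to their own mean profile (0.097, 0.099 and 0.10) and Fosl2 and Atf3 farthest (0.32 and 0.43).

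Other genes of the pathway were taken from 6 lists of textbook genes, 92 genes in the table in all, of which 70 could be tested. The lists were written with earlier results of these data known, so a listed gene that passed is no independent evidence of a difference. Zfp36 rose in males and no other passed in either direction. An unadjusted p under 0.05 was given to 8 of the 70, Zfp36 among them, and to 959 of all 8460 tested genes by edgeR (499 by DESeq2). Among 17 tested leucine-zipper partners, none passed, 9 fold changes lay above 0 and 8 below, and their median was 0.021 on the log2 scale. Atf4, an activator of the integrated stress response that can induce Atf3, had 312, 301.01 and 327 CPM in males and 264, 249 and 222 in females. The male values were all higher, with a log2 fold change of 0.36 ± 0.12 (SE; adjusted p = 0.228, edgeR). Cebpb, a leucine-zipper factor of myeloid cells, had 159 ± 27.2 CPM in males and 159 ± 4.98 in females (SD, n = 3 each).

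Remaining members of the AP-1 family were low. Jdp2, a repressor that pairs with JUN, had 50 counts in males and 57 in females, with a log2 fold change of 0.62 ± 0.31 (SE) that did not pass. Batf, a partner of JUN in lymphoid cells, had 47 and 78 counts and a log2 fold change of 0.078 ± 0.29. Fosl1, which encodes FRA-1, had 1 count in males and 2 in females, Batf2 1 and 3, Batf3 1 and 0, and the third small MAF gene, Mafk, 12 and 26, all too few to test. Bach1, a repressor that pairs with small MAF proteins, had 33 counts in males and 115 in females. Its log2 fold change of -0.99 ± 0.30 (SE) did not pass with all libraries, and without male replicate 1 it was -1.44 and passed (adjusted p = 0.0157, edgeR). Calls rose over the whole table in that setting, with 78 of 8989 tested genes lower in males, against 13 of 8460 with all libraries.

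Upstream of AP-1, none of 20 tested kinases and serum response factors passed (median log2 fold change -0.042). Mapkapk2, a kinase downstream of p38, had 428 ± 16.0 CPM in males and 472 ± 25.6 in females, and Rps6ka1, a kinase downstream of ERK, 243 ± 36.1 and 249 ± 11.3 (SD, n = 3 each). None of 11 tested coregulators passed (median -0.10), with Ncor1, a corepressor, at 237 ± 54.8 CPM in males and 243 ± 21.4 in females and Cops5, a coactivator of JUN, at 128 ± 11.9 and 102 ± 4.13. Among 8 tested integrated stress response genes, 0 passed (median 0.046), and 4 fold changes lay above 0 and 4 below. They ran from -0.45 ± 0.32 (SE) for Asns to 0.61 ± 0.26 for Gadd45a. Male libraries all lay above female ones for Atf4 and Ddit3 (0.51 ± 0.32), a split that held for 7.57% of all tested genes. Ppp1r15a, which restores translation after stress, had 71.9 ± 7.45 CPM in males and 66.6 ± 14.6 in females. Without male replicate 1, Map3k1 and Gsk3b passed with lower levels in males, at -0.49 and -0.63 on the log2 scale. They were among 78 genes of 8989 that did so in that setting, against 13 of 8460 with all libraries.

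None of the 7 tested textbook targets of AP-1 passed, and their median log2 fold change was -0.055. Vim, the gene of the cytoskeletal protein vimentin, had 1932, 1753 and 1812 CPM in males and 1856, 1769 and 1670.1 in females, so the sexes overlapped. Cd44, an adhesion receptor gene, had 351 ± 36.3 CPM in males and 389 ± 12.1 in females (SD, n = 3 each). Mmp9 and Timp1, classical targets in other cells, had 1 count each over the 6 libraries. Of the 7 fold changes, 3 lay above 0 and 4 below. Male libraries all lay above female ones for Spp1 (0.56 ± 0.27, SE) and all below for Cd44. Such splits held for 7.57% and 8.03% of all tested genes. Among targets too low to test, counts in males and females were 24 and 14 for Nr4a1 and 13 and 8 for Hmox1. They were 3 and 0 for Il6, 7 and 29 for Plau and 15 and 30 for Ets1. In CPM the sexes overlapped for all but Nr4a1 and Hmox1, where males were higher. Neither had more than 12 counts in a library. The shares given above cover tested genes only, so no background share stands beside this split.

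Of 9 tested genes in the list of proteins that act on AU-rich elements, Zfp36, which encodes the decay factor tristetraprolin and is itself an early gene, rose in males and 8 did not pass. Zfp36 had 344, 238 and 289 CPM in males, against 216, 176 and 135 CPM in females. The groups did not overlap, male replicate 2 was its lowest male library as for Fos, and the log2 fold change was 0.74 ± 0.15 (SE; adjusted p = 0.0176, edgeR). It did not pass when scaled by library size or thinned, nor without male replicate 3 (0.74), female replicate 2 (0.74) or female replicate 3 (0.58). Zfp36l2 had a log2 fold change of 0.31 ± 0.19, and Zfp36l1, with 28 counts in males and 29 in females, 0.75 ± 0.39, and neither passed. Brf1 in that list encodes, under this symbol, a subunit of an RNA polymerase III factor.

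**Figure D5:**
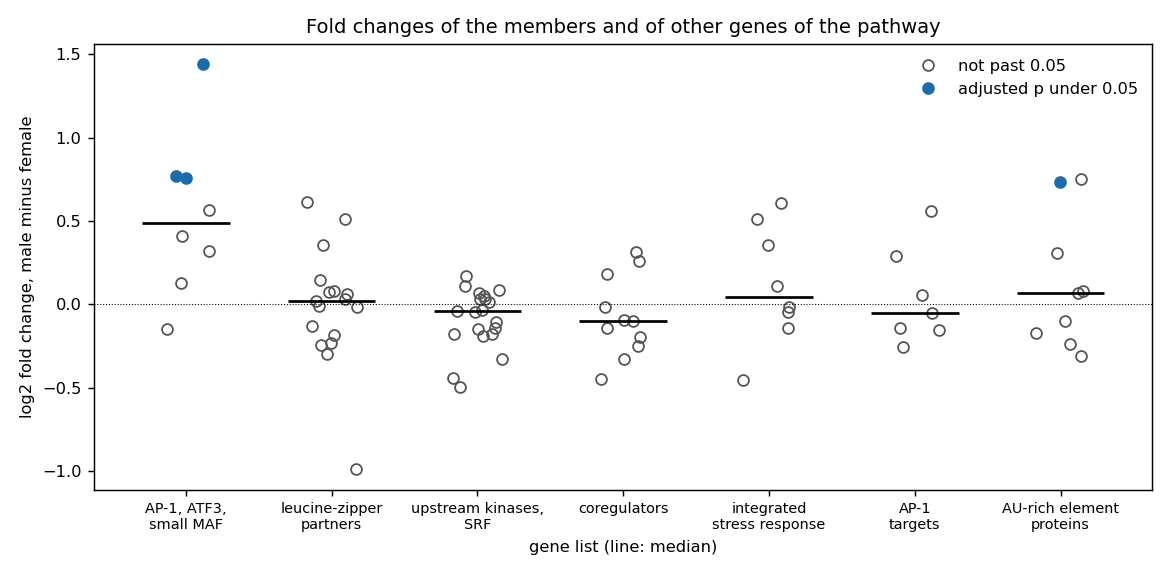
Log2 fold change, male minus female (vertical axis), of each tested gene of the members and of the 6 lists, with a line at each list's median and filled points for an adjusted p under 0.05. Filled points are Atf3, Junb and Fos among the members and Zfp36 among the AU-rich element proteins, and the medians of the 6 lists lie between -0.10 and 0.070.

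Markers of other cell types moved with sex beside these genes. The marker lists too were written with earlier results of these data known, so their calls are a description. The 9 erythroid markers summed to 289, 364 and 219 CPM in male libraries and 98.2, 96.2 and 112 in female ones, and Car1 and Car2, both carbonic anhydrase genes, were the 2 that could be tested and both rose. Car1 averaged 142 ± 23.3 CPM in males and 44.5 ± 3.04 in females, and Car2 109 ± 28.6 and 37.4 ± 8.74 (SD, n = 3 each). The 5 megakaryocyte markers summed to 39.6, 111 and 105 CPM in males and 31.4, 22.4 and 25.4 in females, where Pf4, a platelet chemokine gene, was the only tested one and rose, with 60.7 ± 28.4 CPM in males and 15.7 ± 4.89 in females. Of 5 tested markers of mast cells, basophils and eosinophils, Cpa3, a mast cell protease gene, rose (33.1 ± 10.7 CPM in males, 12.4 ± 2.09 in females), and the 7 markers summed to between 168 and 227 CPM in males and between 122 and 157 in females. The 7 B cell markers summed to between 64.9 and 73.4 CPM in males and between 93.4 and 98.5 in females, with Ms4a1, which encodes CD20, lower in males among 2 tested (2.69 ± 0.554 CPM in males, 14.0 ± 3.08 in females). Ms4a1 did not pass in DESeq2 (adjusted p = 0.132), in limma-voom (0.052) or without male replicate 3 (0.139). Pf4 and Cpa3 did not pass without male replicate 3 (log2 fold changes 1.68 and 1.16), nor did Cpa3 without female replicate 2 (1.42). No listed marker present in the table was at 0 in all 6 libraries.

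The 6 lung epithelial markers, from a tissue whose samples shared the pooled library, summed to 239, 462 and 228 CPM in male replicates 1 to 3 and 209, 186 and 151 in female replicates 1 to 3. Male replicate 2, the highest for lung markers, was the lowest male library for Fos, Fosb, Jun, Jund and Atf3. None of 5 tested lung markers passed with all libraries, although all 5 fold changes lay above 0, with a median of 0.60 on the log2 scale. Sftpc, a surfactant gene, had 140.02 ± 70.4 CPM in males and 71.4 ± 18.2 in females (SD, n = 3 each) and passed with the replicate block, with no filter, when thinned, and without male replicate 1 or female replicate 1. Without male replicate 1, Sftpb and Scgb1a1 passed as well, and without male replicate 2 the log2 fold change of Sftpc was 0.48, against 0.92 with all libraries. Leaving out male replicate 1 gave 337 genes higher in males among 8989 tested, against 36 among 8460 with all libraries. The 7 stromal markers in the table summed to 217, 329 and 225 CPM in males and 231, 179 and 202 in females. None of the 4 tested passed with all libraries, and Col1a1, Col1a2, Cxcl12 or Sparc passed with no filter or without male replicate 1 or female replicate 1. Lists of 6 monocyte and macrophage, 2 dendritic, 4 plasma cell, 1 T and natural killer cell, 4 stem and multipotent progenitor, 2 neutrophil and 6 immature myeloid tested markers had 0 genes past the threshold. The part of any of these cell types in the levels of the members was not tested.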

How the data were processed

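The authors deposited a table of counts for each gene, not normalised, for 3 male and 3 female libraries, per the file headers. Per the labels' protocols, libraries were made by BRB-seq with UMIs. Per the submitters' processing notes, DESeq2, featureCounts 2.0.1, HISAT2 2.2.1, Trim Galore 0.6.7 and UMI-tools were used, with builds GRCm38 and GRCh38 and no roles given. The sources used here do not say whether UMIs were collapsed or strand was used, and PCR copies may remain among the counts. The pooled library held 16 samples, of which 10 lung samples are not analysed here.

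Genes were filtered with edgeR 4.0.16 in R 4.3.3 (filterByExpr, minimum count 10, minimum total 15), leaving 8460 of 21606. Library sizes are sums over these genes, scaled by TMM. The sexes were compared, male minus female, by the quasi-likelihood test of edgeR over all tested genes with no covariate and p adjusted by Benjamini-Hochberg, with a threshold of 0.05. Each SE was derived from the log2 fold change and its F statistic. Means carry SD over 3 libraries. Counting intervals are exact 95% binomial intervals. No library was a copy of another: within a sex, counts differed by a chi-square per degree of freedom of 1.98 to 4.09. The steps were tested on simulated data.

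Coordinates and transcripts are GENCODE M21 (GRCm38), in which all 21606 identifiers were found, and promoters are from RefSeq, with all 9 members matched. Alternatives tried were scaling by RLE, by upper quartile or by library size, other filters, DESeq2 1.42.0, limma-voom (limma 3.58.1), thinning to equal depth, a replicate block, and leaving out each library. The members and all lists were chosen with earlier results of these data known. Genes named are all members, from each list up to 4 that passed or else the 2 with the highest level, and the 5 nearest profiles; Jdp2, Batf, Fosl1, Batf2, Batf3, Mafk, Bach1, Map3k1, Gsk3b, Mmp9, Timp1, Zfp36l1, Zfp36l2, Brf1, Prdx2 and Sirt7 were added after their values were seen. Spp1, Nr4a1, Hmox1, Il6, Plau, Ets1, Ddit3, Gadd45a and Asns were also added after their values were seen. Of the listed symbols, 6 were not matched in the table. For marker lists where none passed, only sums or counts are given, except for lung and stromal markers that passed in other fits. Of these, Sftpb, Col1a1, Col1a2 and Cxcl12 lie outside the naming rule and were named because they passed there.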

Additional observations from a re-analysis of the deposited data

How the results depend on the processing

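Of 120 recomputed fold changes of the members, 113 kept their direction and side of the threshold, including all 15 each of Atf3, Junb, Jund and Fosl2; 3 lost the call (Fos, without male replicate 3, female replicate 2 or female replicate 3), 2 gained it (Fosb and Jun, without male replicate 2) and 2 reversed (Mafg, -0.026 when thinned and -0.060 without male replicate 3, with a range of -0.060 to 0.23 when 1 library was left out). The members that passed numbered 3 under every alternative that kept all libraries and 2 to 5 when 1 library was left out, and none passed with lower levels in males. These calls describe the fits and are no independent support, as the contrast chose the members. The summed level, male minus female on the log2 scale, lay between 0.39 and 0.67. Counts over all genes moved more. With 36 higher and 13 lower in males, no filter gave 81 and 35, library-size scaling 23 lower, DESeq2 7 lower and limma-voom 8 lower, and leaving out 1 library gave 19 to 337 higher and 4 to 78 lower. Among the pathway lists, 1 gene was higher and 0 lower; this became 0 higher with library-size scaling and when thinned, and 0 to 1 higher and 0 to 3 lower without 1 library. The cause was not tested.

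Same-numbered libraries of the 2 sexes had small correlations of deviations over tested genes (0.026, 0.029 and 0.044). Each library correlated best with its own number, as a hint from the data, and other pairs lay between -0.031 and 0.0013. No criterion for pairing was set. With the replicate number as a block, 56 genes were higher and 22 lower, and the same count of 3 members passed. Depth limits Maff, which had at most 14 counts in a library and could not be tested.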
